A study of Homo sapiens with 16 samples.

Results

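The response of high MYC cells to N-myristoyltransferase (NMT) inhibition was described by setting the 4 libraries labelled as treated at high MYC against the 4 labelled as controls at high MYC, which are 8 of the 16 libraries of the study. All genes with a mean normalized count of at least 10 over these 8 libraries entered the comparison, which left 13326 of 58051 identifiers. Another 11521 identifiers were above 0 but below the filter, and 33204 were listed at 0 in all 8 libraries. The filter looks at the mean over both groups, so a gene can pass it through the group where it is high. The genes nearest to it were ENSG00000229848 with a mean of 10.0003 just inside and TGIF2-RAB5IF with 9.997 just outside.

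All libraries came from P493-6, an immortalised human B lymphoblastoid line that carries the genome of Epstein-Barr virus and a MYC transgene that doxycycline represses. High MYC control cells were kept for 24 h in ordinary DMEM, without doxycycline or added β-estradiol, and then received DMSO, the solvent, for 24 h. High MYC inhibitor cells were kept in the same way and received 100 nM IMP1088, a compound that blocks NMT1 and NMT2, for 24 h. Medium MYC cells, used here only to show where the high MYC response differed, were kept for the first 24 h with 1 µM β-estradiol and 0.1 µg/mL doxycycline and then the same inhibitor or DMSO. One line was studied, and the labels number the 4 replicates of each group without saying whether they were separate cultures. The p-values therefore measure the spread between these libraries, which may be partly technical. For limma, the linear model fit used below, the SE and p-values share that spread over all 16 libraries, medium MYC included. MYC level, doxycycline and β-estradiol changed together, so their parts cannot be told apart.

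Myristate, a saturated fatty acid, is joined by N-myristoyltransferases to the glycine that comes first in certain proteins, mostly while the protein is still being made. The modification helps Src family kinases, ARF GTPases, inhibitory G protein α subunits and a subunit of the lysosomal Ragulator complex to sit on membranes. In B cells the Src family kinase LYN starts and restrains signalling from the B cell receptor. RNA sequencing does not measure myristoylation, so the results concern mRNA levels only.

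Reads per high MYC library, recovered from the deposited values, ran from 9153294 to 13858534, with 18899 to 19980 identifiers above 0. Log2 values of libraries in the same group had correlations over genes of 0.984 to 0.990, and no library was a copy of another (the chi-square of a pair, divided by its degrees of freedom, was from 1.75 to 10.95, the highest for control replicates 1 and 4). The first principal component of the 8 libraries held 35.0% of the variance and had all 4 control libraries on 1 side and all 4 inhibitor libraries on the other. On the second component, with 16.5% of the variance, control replicates 2 and 4 lay farthest apart, at 20.1 and -23.0, and inhibitor replicate 2 was at -15.6 while the other inhibitor libraries were between 2.06 and 6.95.

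MYC (ENSG00000136997, chromosome 8, 127735434 to 127741434 on GRCh38), whose level defines the condition, had normalized counts of 34376, 32276, 30251 and 29693 in the control libraries and 46843, 47645, 48049 and 47631 in the inhibitor libraries. The groups did not overlap, and every inhibitor library was above every control library (log2 change 0.59, SE 0.04, limma adjusted p = 3.60e-10). The two-sided exact permutation test of 4 against 4 libraries gave p = 0.0286, the smallest value that this design allows (0.0857 after adjustment over the 3 genes so tested). MYC values may hold reads of the transgene as well as of the chromosome 8 gene. These cannot be told apart here, so the rise cannot be assigned to either. NMT1 (chromosome 17, 45051610 to 45109016), the more abundant of the enzymes that the compound blocks, had 1505 ± 27.6 in controls and 1454 ± 36.3 with the inhibitor (SD, n = 4; log2 change -0.05, SE 0.04, limma adjusted p = 0.324; exact permutation p = 0.0857, adjusted 0.129). NMT2 had between 1 and 4 reads in each of the 8 libraries, too few to show a change at this depth (exact permutation p = 0.571). The inhibitor acts on the enzyme and not on its mRNA, so these values do not check the treatment labels. The MYC level of both groups was above that of the medium MYC groups, whose means were 958.6 ± 48.7 (control) and 1382 ± 51.2 (inhibitor; SD, n = 4). MYC was called higher there too (log2 change 0.53, limma adjusted p = 1.49e-09). The difference between the responses at the 2 levels was 0.06 and was not called (limma adjusted p = 0.599).

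B cell markers were well expressed. All 10 that were examined passed the filter, and their summed normalized count was between 46729 and 49115 in controls and between 39272 and 40632 with the inhibitor. Of the 10, 9 were called lower with the inhibitor, among them CD22 and MS4A1 (CD20), which went from 11652 ± 296 to 9456 ± 312 (SD, n = 4; log2 change -0.30, SE 0.03, limma adjusted p = 5.46e-08). All libraries came from the same line. A lower marker level in bulk RNA can come from fewer cells that express it or from less RNA per cell, and these cannot be told apart. Of 11 T and NK cell markers 3 passed the filter, and their summed level over the list was 87.2 to 105.4 in controls and 55.1 to 77.6 with the inhibitor. TRAC (-0.93) and CD3G (-0.73) were called lower, both named after their values were seen, whereas CD8A and GNLY were at 0 in all 8 libraries. CD3G lost its call with no filter (limma adjusted p = 0.0808), with the replicate block (0.0615), and without control replicate 3 or 4 or inhibitor replicate 1, 3 or 4 (0.0584 to 0.112). Myeloid markers (2 of 9 tested) summed to 63.3 to 80.5 in controls and 51.6 to 63.2 with the inhibitor, with CD163, FCN1, S100A8 and S100A9 at 0. Of the 2 tested, 1 was called lower, with a log2 change of -1.10. Epithelial and fibroblast markers (1 of 10 tested) summed to 54.2 to 70.8 and 64.3 to 86.3, with COL3A1, DCN, KRT18 and LUM at 0. The part of these marker changes in the results was not tested.

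At a limma adjusted p-value under 0.05, 3653 of the 13326 genes differed between inhibitor and control, which is a background of 27.4% for every count that follows. Of these, 1434 were higher with the inhibitor (10.8% of genes tested) and 2219 lower (16.7%). Without the libraries that lay apart on the second component the count called was 3128 (control replicate 2), 3341 (control replicate 4) and 3115 (inhibitor replicate 2). Control and inhibitor values did not overlap for 27.5% of the genes. Most changes were small. Called genes had a median absolute log2 change of 0.29, and 132 genes were called at least 2-fold higher (0.991%) and 49 at least 2-fold lower (0.368%). The median log2 change of all tested genes was -0.02. The balance of directions depended on the scaling: quantile normalization called 1902 genes higher and 1871 lower. The share of genes called grew with expression level, from 16.54% at a mean of 10 to 50 to 53.91% at 5000 and above. Called genes also differed in base composition: the median GC content was 45.3% for genes called higher, 52.2% for genes called lower and 48.0% for all tested genes, and a GC correction called 1583 genes higher and 2318 lower.

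**Figure D1:**
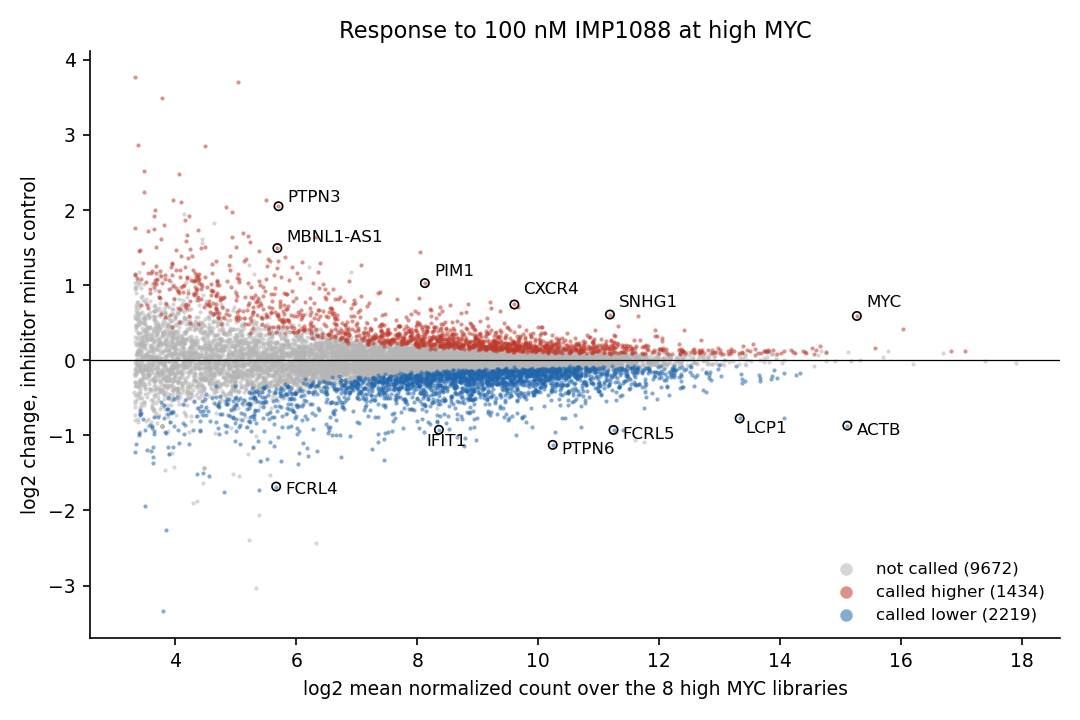
Log2 change at high MYC (vertical axis, inhibitor minus control) against the log2 of the mean normalized count over the 8 libraries (horizontal axis) for 13325 of the 13326 genes. Red points are the 1434 genes called higher, blue points the 2219 called lower and grey points those not called. The smallest called changes lie at the right, and among abundant genes MYC (log2 change 0.59) and ACTB (-0.87) lie far from 0.

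The named rises led with a phosphatase, a kinase and a group of noncoding RNAs. PTPN3 (chromosome 9, 109375466 to 109498313), a cytoskeleton-associated protein tyrosine phosphatase, had the largest rise among genes with a symbol, a mean of at least 50 and no overlap between the groups. Its normalized counts were 23.3, 19.1, 19.9 and 15.6 in controls and 96.8, 76.5, 62.0 and 104 with the inhibitor, so the lowest inhibitor value was above the highest control value (log2 change 2.05, SE 0.15, limma adjusted p = 1.06e-09). PIM1 (chromosome 6, 37170203 to 37175426), a survival-promoting serine/threonine kinase induced by JAK-STAT signalling, went from 177, 185, 184 and 188 to 373, 382, 373 and 373. The lowest inhibitor value was above the highest control value, as the choice of genes required (log2 change 1.03, SE 0.05, limma adjusted p = 3.25e-12). ACSM3, a mitochondrial medium-chain acyl-CoA synthetase, rose by a log2 change of 1.29 (limma adjusted p = 1.76e-04), TC2N by 0.92 and the zinc finger gene ZNF256 by 0.89. The other 7 of the 12 largest rises were noncoding RNAs, namely MBNL1-AS1 (1.49), BMP2K-DT (1.32), STAM-DT (1.24), NFE2L1-DT (1.18), EIF2AK3-DT (1.16), INSIG1-DT (0.95) and CAPN10-DT (0.90). PTPN3, MBNL1-AS1 and BMP2K-DT had means over the 8 libraries of 52.1, 51.5 and 51.6 and control means of 19.5, 27.3 and 28.9. They passed the mean of 50 only through the inhibitor group, which favours them in this ranking. Control means of STAM-DT, EIF2AK3-DT, TC2N and ACSM3 were also under 50. Exons of ACSM3, TC2N, MBNL1-AS1 and EIF2AK3-DT overlap those of a neighbouring gene, so their values are uncertain, because the use of strand in the counting is not given in the sources used here.

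The 12 largest falls, chosen under the same conditions, included genes of leukocyte surface receptors and of phosphatases. FCRL4 (chromosome 1, 157573749 to 157598080), an inhibitory Fc receptor-like protein of memory B cells, had normalized counts of 78.3, 75.2, 81.7 and 74.9 in controls and 32.3, 17.7, 25.3 and 20.8 with the inhibitor. All 4 inhibitor values lay far under the lowest control value (log2 change -1.68, SE 0.11, limma adjusted p = 2.49e-10). The SE also draws on the medium MYC libraries, where FCRL4 was higher, with means of 964 (control) and 805 (inhibitor). PTPN6 (chromosome 12, 6946468 to 6961316), which encodes the SHP-1 phosphatase that damps B cell receptor signalling, was the most abundant of the 12 largest falls. It went from 1762, 1627, 1638 and 1613 to 791, 695, 802 and 752, without overlap, as the choice required (log2 change -1.13, SE 0.04, limma adjusted p = 2.71e-14). PTPRJ (CD148), a receptor phosphatase that acts on Src family kinases, went from 249 ± 19.0 to 99.4 ± 15.7 (SD, n = 4; log2 change -1.33, SE 0.09, limma adjusted p = 6.55e-10). The chemokine receptor gene CCR2 changed by -1.38, and SPRED2, a negative regulator of the RAS-ERK pathway, by -1.35. The remaining falls of this group were NES (-1.23), PPP1R3A (-1.20), the transcription factor gene LYL1 (-1.18), LRRC32 (-1.17), the chitinase-like CHI3L2 (-1.14), MILR1 (-1.10) and ARID5B (-1.09), all on the log2 scale and all called.

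**Figure D2:**
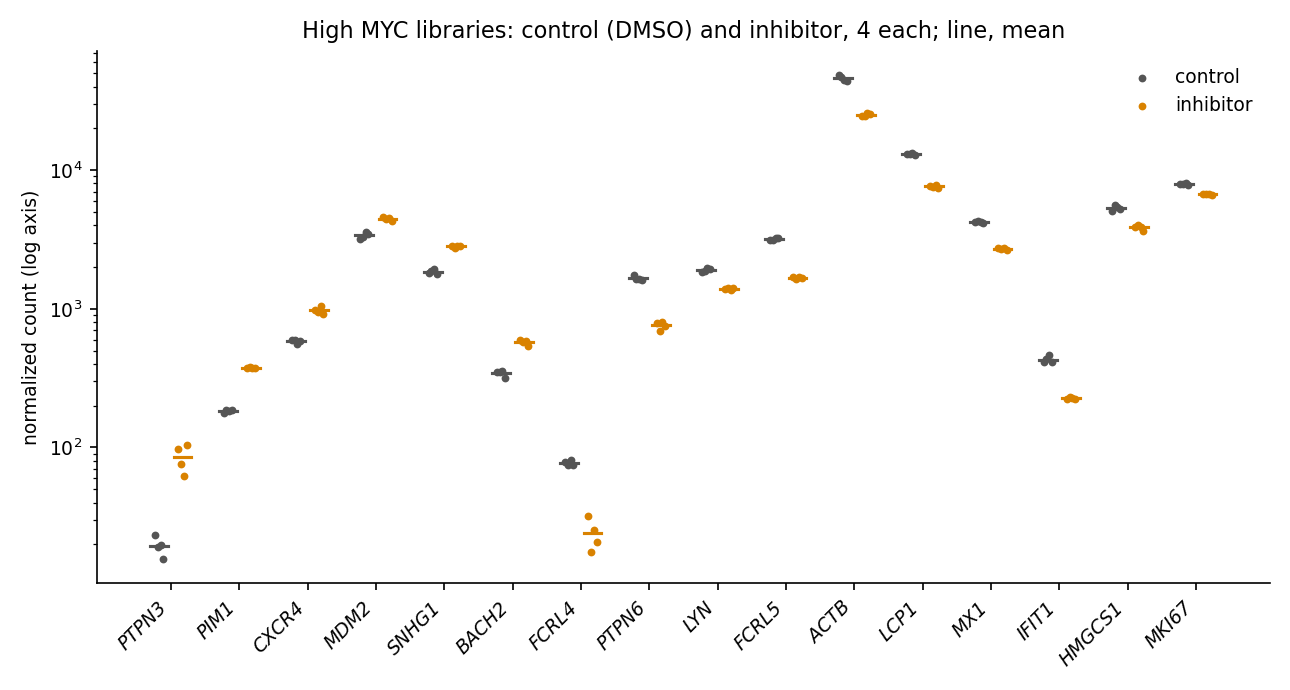
Normalized counts on a log axis for 16 genes in the 4 control (grey) and 4 inhibitor (orange) libraries at high MYC, each point 1 library and each line a group mean. The 2 groups do not overlap for any of the 16 genes. Lack of overlap was a condition for choosing PTPN3, PIM1, FCRL4 and PTPN6, and most of the others were chosen by a small p-value. The inhibitor points of PTPN3 and FCRL4 are spread more widely than those of PIM1 or MX1.

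Genes for proteins that carry an N-terminal myristate were examined first among the gene groups, because the compound blocks that modification. Of 62 listed, 58 were tested. At high MYC 5 were called higher and 20 lower, so that 34.5% were lower against 16.7% of all tested genes, and the median log2 change was -0.10 against -0.02. LYN (chromosome 8, 55879813 to 56014168) had normalized counts of 1839.96, 1872, 1978 and 1939 in controls and 1388, 1422, 1375 and 1409.5 with the inhibitor. Each inhibitor value was below each control value (log2 change -0.45, SE 0.03, limma adjusted p = 1.80e-10). CYB5R3, a cytochrome b5 reductase, changed by -0.74 and GNAI2, an inhibitory G protein α subunit, by -0.47 (limma adjusted p = 2.17e-09 and 2.28e-09). Of the 8 Src family kinase genes, 5 were called lower and none higher, with a median of -0.25. FGR (-0.27) was among the 5, beside LYN. None of the 3 tested genes for myristoylation enzymes (NMT1, METAP1 and METAP2) was called. Genes of ARF GTPases and their regulators were called in both directions, 6 higher (3 without control replicate 1) and 8 lower of 32. In the Ragulator, Rag and mTORC1 group AKT1S1 was called higher (0.24) and MTOR lower (-0.11), of 19 tested, both named after their values were seen, and MTOR lost its call under quantile normalization (limma adjusted p = 0.103). The lower count was 2 without inhibitor replicate 2 or replicate 3 of the medium MYC controls. The count of N-myristoylated protein genes called higher was 3 without control replicate 1 or 2 or inhibitor replicate 1.

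Most B cell receptor signalling genes were called lower. Of 23 tested, 18 were called lower and 1 higher (2 without control replicate 1), and the median log2 change was -0.30. Besides PTPN6, the inhibitory co-receptor gene CD22 went from 2023 ± 48.7 to 1329 ± 52.98 (SD, n = 4; log2 change -0.61, SE 0.03, limma adjusted p = 2.99e-12). PIK3AP1 (BCAP), an adaptor that links the receptor to PI3 kinase, changed by -0.48. The exchange factor gene VAV1, named after its values were seen, changed by -0.90. Both activating and inhibitory components were thus among the genes that fell. CD79B, which encodes a signalling chain of the receptor itself, was the exception among the markers and was not called, with a log2 change of -0.02. Genes for the tyrosine phosphatases of the PTPN family went in different directions, with PTPN3 called higher and 6 of 14, PTPN6 among them, called lower.

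Among surface receptors, of 10 tested Fc receptor-like and lectin receptor genes, 7 were called lower and 1 higher, with a median of -0.58. FCRL5 (chromosome 1, 157513377 to 157552520), the most abundant of those named, went from 3132, 3123, 3260.3 and 3231 to 1708, 1652, 1682 and 1655. Every inhibitor value was under every control value, a 1.90-fold lower mean on the fitted scale (log2 change -0.93, SE 0.03, limma adjusted p = 1.82e-15). FCER2 (CD23), the low-affinity IgE receptor, changed by -0.76. Among chemokine receptors the direction was mixed: 2 of 7 tested were called higher and 3 lower. CXCR4, the receptor for CXCL12, rose from 599, 591, 557 and 585 to 983, 951, 1054 and 919, with no overlap (log2 change 0.74, SE 0.04, limma adjusted p = 1.65e-11), while CCR2 fell. Of 16 integrin and adhesion genes 2 were called higher and 7 lower. The 3 with the smallest p-value were leukocyte integrin genes called lower: ITGAL (CD11a) by -1.01, its partner ITGB2 (CD18) by -0.94 and ITGB7 by -0.64. Exons of these 3 overlap another gene.

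Most antigen presentation genes were also called lower. Of 14 MHC class II genes 12 were called lower and 1 higher, with a median of -0.26. CIITA, the coactivator that switches on class II genes, changed by -0.37, HLA-DPA1 by -0.29 and HLA-DRA by -0.26. Of 18 class I genes 11 were called lower (7 under quantile normalization) and none higher, with a median of -0.11. Among class I heavy chains HLA-E changed by -0.49 (limma adjusted p = 8.74e-10), while HLA-B and HLA-C were not called. Reads of the near-identical HLA genes can be split among them, so these values are uncertain. Transcription factor genes of the B lineage went both ways, 5 higher and 9 lower of 18. BACH2, a repressor that holds back plasma cell differentiation, rose by 0.75 and IRF8 by 0.30, whereas IKZF1 (Ikaros) fell by a log2 change of -0.43. Of 25 NF-κB targets and subunits 7 were called higher (28%, against 10.8% of all tested genes) and 4 lower (16%, near the 16.7% of all tested genes). BIRC3 stood at 0.69 and TRAF1 at -0.58.

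**Figure D3:**
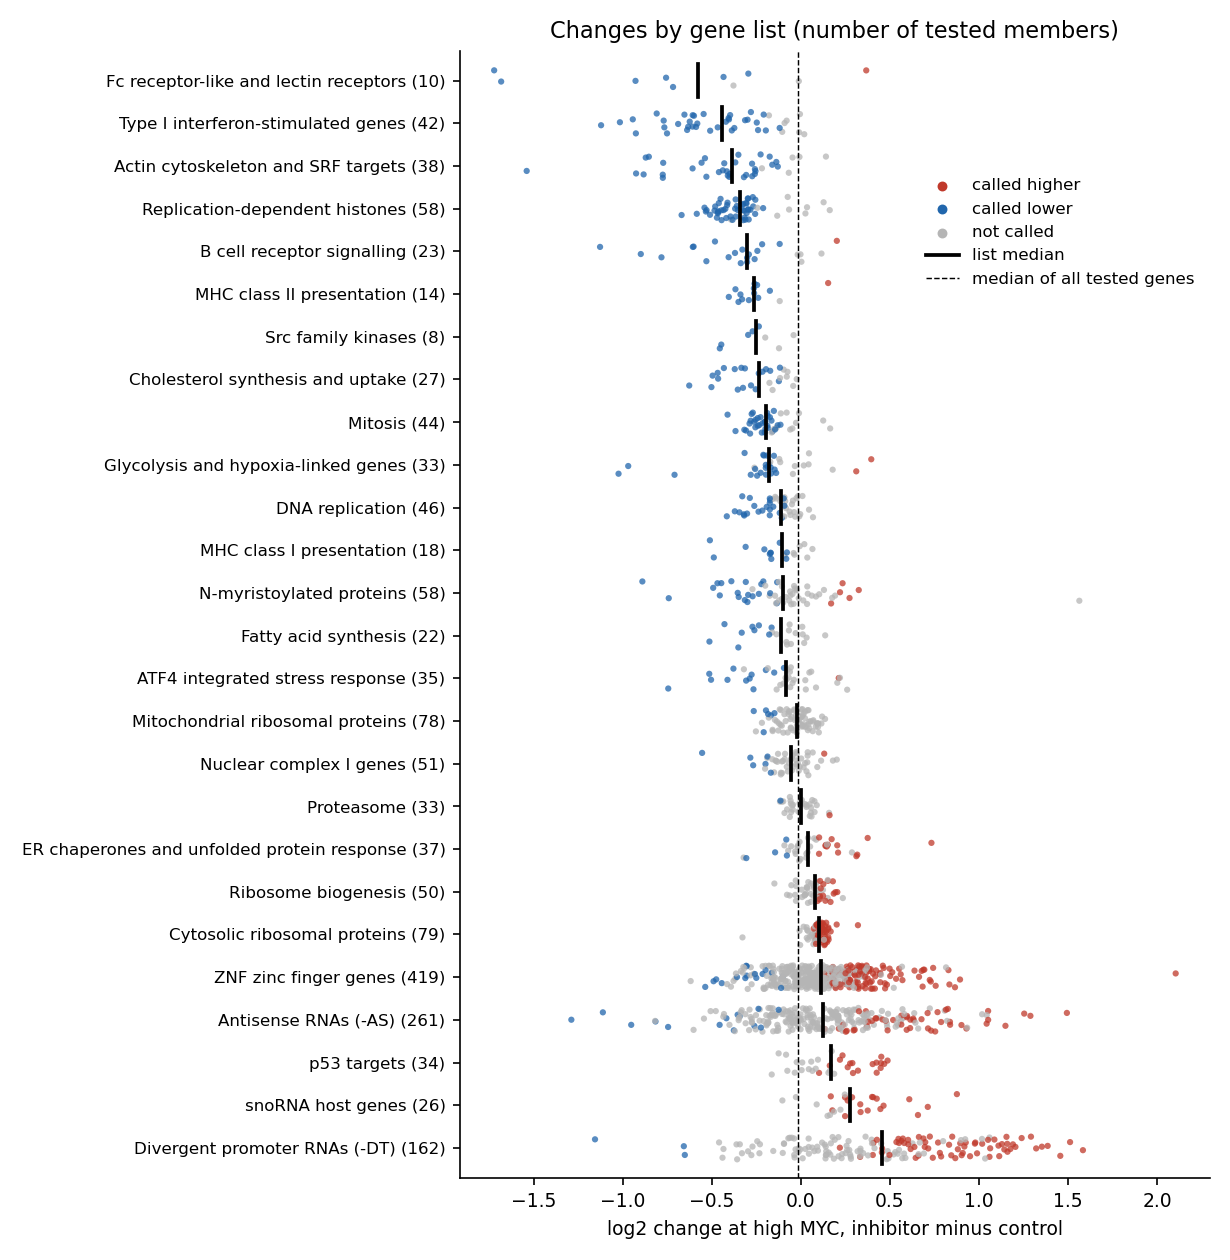
Log2 change at high MYC (horizontal axis) of every tested member of 26 gene lists, 1 point per gene, with the number of tested members in parentheses. Red and blue points were called higher and lower, grey points were not called, thick bars are list medians and the dashed line is the median of all tested genes (-0.02). Interferon-stimulated, actin and histone genes lie almost wholly to the left (medians -0.44, -0.38 and -0.34), and divergent promoter RNAs have the rightmost median (0.46).

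Most type I interferon-stimulated genes were called lower. Interferon α and β act through a transcription factor complex that binds the interferon-stimulated response element (ISRE) in the promoters of these antiviral genes. Of 44 listed, 42 were tested, 35 were called lower and none higher, and the median log2 change was -0.44. MX1 (chromosome 21, 41420304 to 41459214), a GTPase that blocks influenza viruses, had 4199, 4281, 4192 and 4135 in controls and 2758, 2679, 2755 and 2649 with the inhibitor. IFIT1 (chromosome 10, 89392546 to 89406486), which binds viral RNA, had 412, 436, 465 and 410.2 and 224, 229.6, 228 and 222. In both genes all inhibitor values were under all control values (log2 change -0.63, SE 0.03, limma adjusted p = 5.38e-13 for MX1; log2 change -0.93, SE 0.05, limma adjusted p = 3.86e-12 for IFIT1). PARP9 changed by -0.75. ISG15 (a ubiquitin-like modifier) and IFIT3, named after their values were seen, changed by -0.77 and -0.69. IFIH1, an RNA sensor chosen in the same way, stood at 532 ± 36.1 and 529 ± 32.5 (SD, n = 4; log2 change -0.01, SE 0.05, limma adjusted p = 0.915) and was not called. Neither IFIT2, IFIT5, ISG20, MX2, SP110 nor TRIM22 was called. Exons of MX1 and PARP9 overlap another gene.

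The promoters of these genes were searched for the ISRE letters GAAANNGAAA on both strands, from 250 bases before to 50 after the RefSeq start site (GRCh38.p14). The letters were present in 20 of the 34 tested members that had a promoter in the reference (58.8%), in 3.65% of 27305 promoters and in 2.96% of the 9559 promoters of tested genes. Of the 20 members with the letters 17 were called lower, and of the 14 without them 13 were. The list was made of known interferon-stimulated genes, so its share of matches does not bear on the inhibitor. A match is a description of the sequence and not a shown binding site. The 3 members with the smallest p-value whose match lay before the start site are printed because they show the shared element beside a fall, and IFIH1 because it has the element without a call. Each stretch of 100 bases is on the strand of the gene, 5′ to 3′, with matches on either strand in capitals.
IFIT1 (chr10:89392462-89392561, plus strand): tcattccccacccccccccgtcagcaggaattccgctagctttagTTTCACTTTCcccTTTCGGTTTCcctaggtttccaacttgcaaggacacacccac
IFIT3 (chr10:89327796-89327895, plus strand): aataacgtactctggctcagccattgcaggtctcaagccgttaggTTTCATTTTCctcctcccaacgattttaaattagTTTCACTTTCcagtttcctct
ISG15 (chr1:1013339-1013438, plus strand): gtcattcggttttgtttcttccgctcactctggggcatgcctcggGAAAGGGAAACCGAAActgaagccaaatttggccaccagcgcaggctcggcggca
IFIH1 (chr2:162318789-162318888, minus strand): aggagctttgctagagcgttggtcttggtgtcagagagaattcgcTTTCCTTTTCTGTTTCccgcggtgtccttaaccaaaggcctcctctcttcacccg
Matches in IFIT1, IFIT3 and IFIH1 read TTTC first because the element lies on the other strand there, and overlapping matches run together in ISG15 and IFIH1.

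Most actin cytoskeleton genes were called lower. Serum response factor (SRF), with its actin-sensing cofactors of the MRTF family, drives many of them through the CArG box. Of 38 tested genes 33 were called lower and none higher, with a median of -0.38. ACTB (β-actin), named after its values were seen and among the most abundant mRNAs of these libraries, had 48475, 46786, 44345 and 43986 in controls and 24499, 24676, 25636 and 25520.3 with the inhibitor (log2 change -0.87, SE 0.04, limma adjusted p = 2.08e-13). ACTG1 (γ-actin; chromosome 17, 81509971 to 81523847) went from 21783 ± 424 to 12749.8 ± 281 (SD, n = 4; log2 change -0.77, SE 0.03, limma adjusted p = 1.16e-14). LCP1 (chromosome 13, 46125920 to 46211871), the actin-bundling plastin of leukocytes, had the smallest p-value of all genes and went from 13052, 12980.1, 13310.4 and 12795 to 7634, 7565, 7808 and 7457 (log2 change -0.78, SE 0.02, limma adjusted p = 5.84e-16). Neither ACTB nor LCP1 showed overlap between the groups. TPM4, a tropomyosin, changed by -0.88, and CNN2 (calponin 2), named after its values were seen, by -0.77. The 5 members not called were CNN3, MARCKS, TPM1, TAGLN and TAGLN2. Actins have many processed pseudogenes, so ACTB and ACTG1 are uncertain to the extent that reads were split among copies.

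The CArG box, searched by its usual definition on both strands in the same windows, was present in 5 of the 33 tested members with a promoter (15.2%), against 1.29% of all 27305 promoters and 1.04% of those of tested genes. The list was made partly of SRF targets, so this share does not bear on the inhibitor. The 5 were ACTG1, FLNA, TPM4, CNN2 and SRF itself, and all 5 were called lower, as were 24 of the 28 without it. The 3 with the smallest p-value are printed with the match in capitals, to show the element in genes that were called lower.
TPM4 (chr19:16067320-16067419, plus strand): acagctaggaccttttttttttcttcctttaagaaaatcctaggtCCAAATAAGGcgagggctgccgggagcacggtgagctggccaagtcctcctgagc
ACTG1 (chr17:81512839-81512938, minus strand): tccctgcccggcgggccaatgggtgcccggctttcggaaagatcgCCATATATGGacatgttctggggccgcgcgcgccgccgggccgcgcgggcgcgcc
CNN2 (chr19:1026474-1026573, plus strand): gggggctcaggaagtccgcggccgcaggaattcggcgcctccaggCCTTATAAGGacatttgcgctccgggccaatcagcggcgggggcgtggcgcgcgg
The first base of the match lay 173 bases before the start site in TPM4, 94 in ACTG1 and 89 in CNN2.

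Genes of cholesterol synthesis and of glycolysis were mostly called lower. Of 27 cholesterol synthesis and uptake genes 19 were called lower and none higher, with a median of -0.24. HMGCS1, which makes HMG-CoA at the head of the pathway, had 5084, 5553, 5451 and 5255 in controls and 3912, 4022, 3885 and 3649.6 with the inhibitor, without overlap (log2 change -0.46, SE 0.03, limma adjusted p = 6.95e-10). LSS and MVD, later enzymes of the pathway, changed by -0.47 and -0.50. Of 22 fatty acid synthesis genes 9 were called lower, none higher and 13 not called, FADS2 (a desaturase) by -0.51. Of 33 glycolysis and hypoxia-linked genes 21 were called lower and 2 higher, with a median of -0.18. ALDOC (aldolase C) changed by -1.02, PFKFB4 by -0.71 and LDHA by -0.25.

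Stress pathways showed no common direction at high MYC. Of 37 genes for endoplasmic reticulum chaperones and the unfolded protein response, 13 were called higher and 4 lower (2 without control replicate 1 or 2 or inhibitor replicate 1 or 4), with a median of 0.04. SEC24D, a coat protein of transport vesicles, rose from 279 ± 8.99 to 464 ± 27.0 (SD, n = 4; log2 change 0.73, SE 0.05, limma adjusted p = 1.31e-10), and XBP1 by 0.21, while SYVN1, a ubiquitin ligase of protein degradation at the endoplasmic reticulum, changed by -0.31. Of 35 ATF4 target genes 1 was called higher (0 without inhibitor replicate 2, 2 without control replicate 2 or 4) and 12 lower, with a median of -0.09. DDIT4, an inhibitor of mTORC1, changed by -0.74, SLC1A4, an amino acid transporter, by -0.51, CBS by -0.38 and the serine synthesis gene PSAT1 by -0.20. PSAT1 lost its call without control replicate 3 (limma adjusted p = 0.0595) or inhibitor replicate 1 (0.0542). Of 22 aminoacyl-tRNA synthetase genes 4 were called lower and none higher (3 higher without inhibitor replicate 4, 1 without control replicate 1 or 3 or without replicate 3 of the medium MYC controls or 4 of the medium MYC inhibitor group), AARS1 most surely (-0.35). Of 22 cytosolic heat shock chaperone genes 2 were called higher (4 without control replicate 3 or 4 or replicate 3 of the medium MYC controls) and 4 lower (2 without control replicate 1). Of 20 NRF2 antioxidant genes none was called higher (2 without control replicate 3, 1 without control replicate 4) and 6 lower, and of 42 lysosome genes 3 and 7. The shares called lower were 18.2% for tRNA synthetases, 18.2% for heat shock chaperones and 16.7% for lysosome genes, near the 16.7% of all tested genes.

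Genes induced by p53 were called in 1 direction. Of 34 tested, 17 were called higher, none lower and 17 not called, against 10.8% of all genes called higher, with a median of 0.17. MDM2, the ubiquitin ligase that limits p53, had 3187, 3308, 3594 and 3440.1 in controls and 4617, 4463, 4485 and 4315 with the inhibitor. The lowest inhibitor value was above the highest control value (log2 change 0.40, SE 0.04, limma adjusted p = 1.09e-07). TP53INP1 rose by 0.45 and GADD45A by 0.47. CDKN1A (p21), named after its values were seen because it is the best known target, stood at 1023 ± 55.6 and 998 ± 27.5 (SD, n = 4; log2 change -0.03, SE 0.05, limma adjusted p = 0.636) and was not called. In the BCL2 family 6 of 19 were called higher and 4 lower. The anti-apoptotic BCL2 rose by 0.32, the pro-apoptotic BCL2L11 (BIM) by 0.17 and PMAIP1 (NOXA), named after its values were seen, by 0.45, whereas pro-apoptotic BID changed by -0.36.

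Calls among cell cycle genes were to lower levels. Of 44 mitosis genes 33 were called lower and none higher (1 higher without control replicate 3 or, at medium MYC, control replicate 3 or inhibitor replicate 2), with a median of -0.19. MKI67 (Ki-67) had 7914, 7889, 8072 and 7741 in controls and 6721, 6675, 6678 and 6661 with the inhibitor, without overlap (log2 change -0.24, SE 0.02, limma adjusted p = 1.64e-07). PLK1, a mitotic kinase, changed by -0.37 and FOXM1, a transcription factor of mitotic genes, by -0.28. Of 46 DNA replication genes 22 were called lower and none higher, with a median of -0.11. RRM2, a subunit of ribonucleotide reductase, changed by -0.42. Of 58 tested replication-dependent histone genes, whose mRNAs accumulate in S phase, 49 were called lower and none higher (1 higher without control replicate 3), with a median of -0.34. The linker histone gene H1-5 changed by -0.36 and H3C13 by -0.53. Histone genes are near-identical copies, so single values are uncertain. Whether fewer cells were in cycle or each held less of these mRNAs cannot be told apart.

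In the main fit most ribosomal protein genes were called higher, by small amounts. Of 79 tested, 50 were called higher, none lower and 29 not called, with a median of 0.10 and a range of -0.33 to 0.32, and RPL3 went from 22356 ± 108 to 25112 ± 269.8 (SD, n = 4; log2 change 0.17, SE 0.02, limma adjusted p = 8.38e-06). The count called higher was 35 with no mean trend, 34 without inhibitor replicate 3 and 64 with equal library totals. Ribosomal protein genes have many processed pseudogenes, and their values are uncertain for that reason. Of 50 ribosome biogenesis genes 14 were called higher and none lower, with a median of 0.08. This count was 24 under quantile normalization, 22 in edgeR, 9 with no filter or no mean trend, and between 6 and 9 without control replicate 1, 2 or 4 or inhibitor replicate 1, 2 or 3. NPM1 rose by 0.11 and NOC3L by 0.19. MYC target genes had a median of -0.02, whose sign changed under quantile normalization, in edgeR and with the GC correction. Of 47, 7 were called higher and 4 lower, with LDHA among those lower. The higher count was 13 under quantile normalization, 4 without control replicate 1 and 3 without inhibitor replicate 3. Among respiratory chain genes 1 was called higher (2 without control replicate 3 or replicate 3 of the medium MYC controls) and 6 lower of 51 for complex I. For complexes II to V these counts were 0 (1 without control or inhibitor replicate 2) and 7 of 39 (3 or 4 lower without control replicate 1 or 2 or inhibitor replicate 1). Mitochondrial ribosomal proteins had 0 and 6 of 78 (1 lower without control replicate 2, 3 without inhibitor replicate 1 and 2 without inhibitor replicate 2). Among proteasome subunits 1 gene was called in each direction of 33. Without 1 library the higher count was 1 or 2 (2 without control replicate 3 or 4 or replicate 3 of the medium MYC controls) and the lower count 0 to 3 (3 without control replicate 1 or replicate 3 of the medium MYC controls, 2 without control replicate 2 or inhibitor replicate 4, 0 without control replicate 3 or inhibitor replicate 1). Among 13 mitochondrially encoded genes 1 was called higher (4 without control replicate 1, 0 without control replicate 4 and 2 without replicate 3 of the medium MYC controls). It was MT-CO1, named after its value was seen (log2 change 0.12, but 0 under quantile normalization, and limma adjusted p = 0.0580 without control replicate 4).

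Calls among several types of noncoding RNA, though not all, were mostly to higher levels. Of 465 tested lincRNAs 114 were called higher and 19 lower, and of 520 antisense RNAs 126 and 18, by the GENCODE 29 types. These types share members with the groups by symbol below: BMP2K-DT and CAPN10-DT are typed as antisense and INSIG1-DT as lincRNA. The counts are therefore not separate. Of 11047 protein-coding genes 1071 were called higher (9.69%) and 2128 lower. Sense intronic RNAs were called higher for 11 (7.48%) and lower for 6 of 147, and none of 17 snRNA and 13 misc_RNA genes was called. Divergent promoter RNAs, whose symbols end in -DT, start near the promoter of another gene and run away from it. Of 162 tested (577 listed), 67 were called higher (41.4%) and 3 lower, with a median log2 change of 0.46. BMP2K-DT had 26.4, 31.4, 25.4 and 32.4 in controls and 67.7, 92.1, 76.8 and 60.3 with the inhibitor, without overlap (log2 change 1.32, SE 0.14, limma adjusted p = 2.34e-07), and IRF2-DT went from 22.2 ± 6.21 to 61.3 ± 8.52 (SD, n = 4; log2 change 1.46, SE 0.16, limma adjusted p = 5.77e-07). Most of these RNAs are of low level, and of all genes with a mean of 10 to 50 258 of 2703 were called higher. With a filter at a mean of 100 there were 9 such calls. Exons of 67 of the 162 divergent RNAs overlap another gene, against 6693 of all 13326 genes tested.

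The partner genes had a median change near 0. For 158 of the divergent RNAs the gene they are named after was also tested, and the median log2 change was 0.47 for the RNA and 0.01 for its partner. Of 66 such RNAs called higher, the partner was called higher for 17, lower for 3 and not called for 46. Over all 158 pairs the partner was called higher for 24 and lower for 20. Partners of RNAs called higher were thus called higher more often, and lower less often, than partners over all pairs. A link between the change of an RNA and that of its partner was not tested. Antisense RNAs with symbols ending in -AS were called higher for 47 and lower for 14 (9 without inhibitor replicate 4) of 261 tested, with THUMPD3-AS1 at 0.63 (its exons overlap THUMPD3). Exons of 224 of the 261 overlap another gene. The use of strand is not given, so their values may hold reads of that gene and the counts are uncertain. Long intergenic RNAs of the LINC series were called higher for 16 (12.3%) and lower for 9 (6.92%) of 130, LINC00938 at 0.62. Their higher share was near the 10.8% of all tested genes, and their lower share was under the 16.7% of all tested genes.

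**Figure D4:**
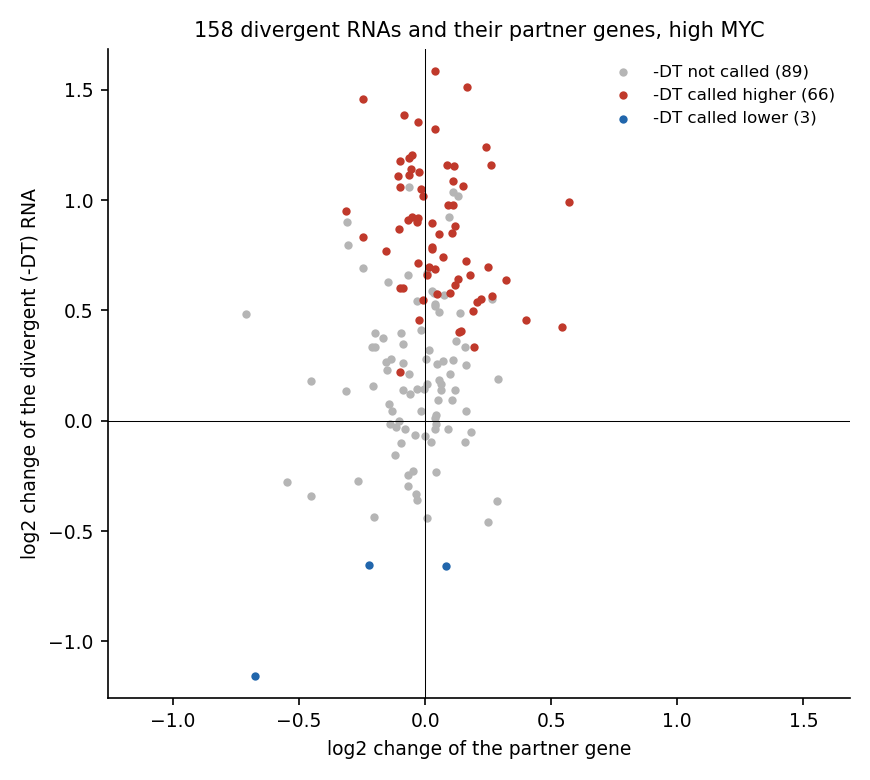
Log2 change at high MYC of 158 divergent promoter RNAs (vertical axis) against that of the gene each is named after (horizontal axis), 1 point per pair. The 66 RNAs called higher (red) stand above partners that lie on both sides of 0, and 3 RNAs (blue) were called lower.

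Most host genes of small nucleolar RNAs were called higher. Their introns hold snoRNAs, which guide the modification of ribosomal RNA. Of 26 tested (31 listed), 18 were called higher and none lower, with a median of 0.28. SNHG1 had 1812, 1869, 1920.4 and 1788 in controls and 2836, 2762, 2823 and 2847 with the inhibitor, without overlap (log2 change 0.61, SE 0.04, limma adjusted p = 2.08e-11). SNHG7 rose by 0.71 and SNHG3 by 0.41. The exons of all 3 overlap annotated snoRNAs or a neighbouring gene. Exons of 24 of the 26 tested host genes overlap another gene, so the count of calls is uncertain to that extent. Of 419 zinc finger (ZNF) genes 104 were called higher (24.8%) and 16 lower, with a median of 0.11, and the GC correction raised the count of lower calls to 27. ZNF551 rose by 0.68, while ZNF217 changed by -0.36. Exons of both overlap another gene.

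The response at high MYC was then set beside that at medium MYC, and the difference between the responses was tested gene by gene. This test called 1180 genes (8.85%), of which 444 (3.33%) had the higher change at high MYC and 736 (5.52%) the lower. Mitosis genes had a median of -0.19 at high and -0.00 at medium MYC, and 17 of 44 had a lower change at high MYC by that test, none a higher. For interferon-stimulated genes the test passed for 26 of 42, all lower at high MYC, with medians of -0.44 and -0.16. For IFIT1 the log2 change was -0.93 at high and -0.09 at medium MYC (difference -0.84, limma adjusted p = 1.92e-08). For ARID5B these values were -1.09 and 0.01 (difference -1.10, limma adjusted p = 7.66e-08).

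Changes of other groups at the 2 levels are given side by side, with the members that passed the test of the difference. Cholesterol genes had medians of -0.24 and -0.47, and 15 of 27 had a higher change at high MYC, none a lower. Actin genes had medians of -0.38 and -0.51, with 15 of 38 higher and 5 lower at high MYC. Chaperone and unfolded protein response genes had medians of 0.04 and 0.49, with 27 of 37 lower at high MYC and none higher, and ATF4 targets -0.09 and 0.49, with 30 of 35 lower and none higher. The p53 targets had medians of 0.17 and 0.27, and the test passed for 1 of 34 higher and 4 lower. For snoRNA host genes these were 0.28 and 0.36, with 1 of 26 higher and 3 lower. Divergent promoter RNAs had medians of 0.46 at high and 0.18 at medium MYC, and 10 of 162 had a higher change at high MYC by that test and 1 a lower, against 3.33% and 5.52% of all genes. MBNL1-AS1 had opposite signs, with log2 changes of 1.49 and -0.59 (difference 2.08, limma adjusted p = 2.66e-05). Values at medium MYC also come from cells with β-estradiol and doxycycline.

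**Figure D5:**
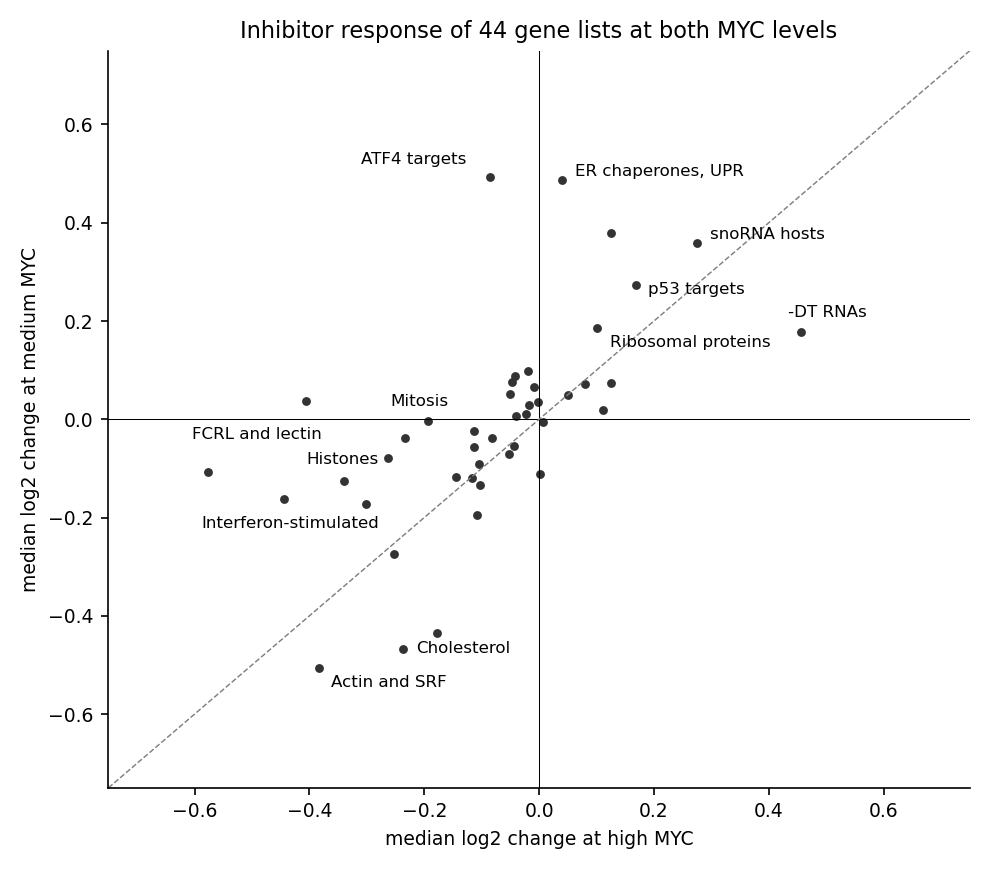
Median log2 change with the inhibitor at high MYC (horizontal axis) and at medium MYC (vertical axis) for the 44 gene lists with at least 7 tested members, cell type marker lists left out, 1 point per list, with the dashed line marking equal medians. ATF4 targets (-0.09 and 0.49), endoplasmic reticulum chaperones (0.04 and 0.49) and interferon-stimulated genes (-0.44 and -0.16) lie above the line, and divergent promoter RNAs (0.46 and 0.18) and cholesterol genes (-0.24 and -0.47) below it.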

How the data were processed

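RNA sequencing of 16 P493-6 libraries, 4 per group, was used, and each library was assigned to its group by its labels. The deposited table holds 1 normalized read count per identifier and library, a signal that the authors made from raw counts. The submitters' processing notes name STAR 2.5.2a, RSEM 1.2.31, DESeq2 1.16.1 and GRCh38. The annotation, the use of strand and any filter are not given in the sources used here. In every library the values were whole multiples of 1 step (tolerance 1e-06), so whole reads were recovered for 100% of values, and depth at high MYC was 9153294 to 13858534 reads. Of 58051 identifiers 56948 had a symbol in the reference table, and 57447 were matched to GENCODE 29 (GRCh38) for positions, types and exon overlap.

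Values were analysed as log2(normalized count + 1) in R 4.3.3 with limma 3.58.1 (mean trend, 4 group means, all 16 libraries) for genes whose mean over the 8 high MYC libraries was 10 or more. A gene was called when the Benjamini-Hochberg adjusted p-value over all tested genes was under 0.05, two-sided. Fold changes are on the log2(value + 1) scale and so understate changes of low genes. The fits were tested on simulated data. Alternatives were other pseudocounts, filters, scalings and fits, the recovered reads tested with edgeR 4.0.16 and with DESeq2 1.42.0, leaving out each library, and a GC correction chosen after the data were seen. The members and lists were chosen with earlier results of these data known.

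The genes described were MYC, NMT1 and NMT2, the 12 largest called rises and the 12 largest called falls (mean of at least 50, a symbol, no overlap between groups), from each list with at least 3 called members the 3 of smallest p-value, and the 5 largest differences from medium MYC in each direction. Not every gene so selected is printed, a few list members are not reported here, and genes outside the rule are named as such. Promoter windows are RefSeq's on GRCh38.p14. Apart from those named as uncertain in the results, exons of NMT1, LRRC32, CD22, IKZF1, BACH2, HLA-DPA1, CIITA, TPM4, ISG15, CNN2, HMGCS1, LSS, FADS2, ALDOC, PFKFB4, SYVN1, DDIT4, MDM2, CDKN1A, BCL2L11, RPL3, RRM2, PLK1, FOXM1, AKT1S1 and MTOR overlap another annotated gene, and their values are uncertain to that extent.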

Additional observations from a re-analysis of the deposited data

Results flagged for a closer look

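In 10 of 220 groups of 4 values examined (110 genes, control and inhibitor), 1 library stood apart from the other 3 by more than Dixon's 95% critical value for 4 samples; chance flags about 1 in 20 groups. The normalized counts were those of PIM1 in inhibitor replicate 2 (highest of the 4, 382), CCR2 in control replicate 4 (highest of the 4, 114), PTPN6 in control replicate 1 (highest of the 4, 1762), ARID5B in control replicate 1 (lowest of the 4, 208), BACH2 in control replicate 4 (lowest of the 4, 315), HLA-DRA in inhibitor replicate 3 (highest of the 4, 4082), GADD45A in control replicate 3 (lowest of the 4, 211), NPM1 in control replicate 3 (highest of the 4, 19037), SNHG3 in inhibitor replicate 4 (highest of the 4, 6316) and LINC00938 in control replicate 1 (lowest of the 4, 225). Control and inhibitor values did not overlap for any of these genes, which was a condition for choosing PIM1, CCR2, PTPN6 and ARID5B.

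For 63 of the 110 genes the response to the inhibitor differed between high and medium MYC by the limma test of that difference, against 8.85% of all genes tested; most of the genes were chosen for their response at high MYC, so the share is a description. The values that follow are differences of log2 changes, high minus medium MYC. A larger fall at high MYC was found for FCRL4 (-1.42), CCR2 (-0.85), SPRED2 (-0.82), PTPRJ (-0.68), PPP1R3A (-0.89), LYL1 (-0.59), LRRC32 (-0.76), CHI3L2 (-0.72), PTPN6 (-0.38), MILR1 (-0.68), LYN (-0.34), CD22 (-0.27), PIK3AP1 (-0.20), VAV1 (-0.38), IKZF1 (-0.26), HLA-E (-0.33), CIITA (-0.22), HLA-DRA (-0.19), MX1 (-0.42), PARP9 (-0.43), IFIT1 (-0.84), IFIT3 (-0.53), ISG15 (-0.47), TRAF1 (-0.45), FCRL5 (-0.58), FCER2 (-0.50), LCP1 (-0.45), ACTB (-0.17), SLC1A4 (-0.42), RRM2 (-0.38), MKI67 (-0.14), PLK1 (-0.25), FOXM1 (-0.20) and ZNF217 (-0.16). A larger rise at high MYC was found for PTPN3 (1.47), BMP2K-DT (0.99), STAM-DT (0.82), TC2N (0.86), ZNF256 (0.78), BIRC3 (0.61), CXCR4 (0.53), BCL2L11 (0.16), SNHG7 (0.22), IRF2-DT (0.80), THUMPD3-AS1 (0.29) and ZNF551 (0.50). A smaller fall at high MYC was found for TPM4 (0.19), HMGCS1 (0.30), MVD (0.32), FADS2 (0.23), PFKFB4 (0.56) and LDHA (0.42), and a smaller rise for SEC24D (-0.56) and XBP1 (-0.85). The signs of the changes were opposite at the 2 levels for MBNL1-AS1 (2.08), INSIG1-DT (0.96), ARID5B (-1.10), SYVN1 (-0.51), PSAT1 (-2.01), CBS (-1.02), AARS1 (-0.39), MTOR (-0.16) and IRF1 (0.31), where INSIG1-DT, ARID5B, AARS1 and MTOR had log2 changes of -0.01, 0.01, 0.04 and 0.05 at medium MYC.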

How the results depend on the processing

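The count of 3653 genes called at high MYC was 3065 to 3901 under 15 other settings and 3115 to 3894 when each library was left out. Higher calls were 1105 to 1902 and 1162 to 1551, lower calls 1841 to 2318 and 1931 to 2343, and genes called for the difference between MYC levels 1002 to 1650 (14 settings) and 1024 to 1363, against 1180. DESeq2 called 3153 genes and edgeR 3680. Scaling moved the median of all genes by at most 0.025. Samples share only a replicate number: residuals of same-numbered libraries correlated at -0.196 to 0.0233, the replicate block called 3471 genes (1060 for the difference), and the GC correction with the block 3750.

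Without 1 library the log2 change of MYC was 0.56 to 0.63, of NMT1 -0.06 to -0.04 and of NMT2 -0.447 to 0.0125, positive without control replicate 3 (0.00690) or inhibitor replicate 4. Under quantile normalization NMT1 stood at 0.00276, CDKN1A at 0.00653 and MT-CO1 at 0, and with the GC correction CDKN1A at 0.0304, with or without the block. IFIH1 had the opposite sign in DESeq2 (0.000554), with equal totals (0.00834), TMM (0.00835), edgeR (0.0150) and quantile normalization (0.0255), and ran from -0.0483 to 0.0311 without 1 library. NMT1, CDKN1A and IFIH1 were not called. Of the 107 printed genes called, 4 (PSAT1, CD3G, MTOR and MT-CO1) lost the call in at least 1 setting.

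Among lists, a filter at a mean of 100, which tests fewer genes, left 9 of 67 higher divergent RNAs, 15 of 47 antisense RNAs and 8 of 16 LINC RNAs. Lower calls moved under quantile normalization from 6 to 1 for mitochondrial ribosomal proteins, 7 to 3 for complexes II to V, 6 to 3 for NRF2 genes and 4 to 1 for chaperones, and with the GC correction from 6 to 11 for complex I. Higher calls of MYC targets were 11 with TMM or equal totals and 12 in edgeR, and lower calls of NF-κB genes 2 in edgeR. Medians of ARF regulators and proteasome subunits changed sign under several scalings, and those of tRNA synthetases, the BCL2 family, mitochondrial ribosomal, mitochondrially encoded and myristoylation enzyme genes under quantile normalization. The causes were not tested.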

Other observations

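Some gene groups fell in no comparison above. Immediate early genes, which are transcribed within minutes of a growth signal, had 15 of 21 listed members tested, 5 called higher and none lower, with a median of 0.13 (0.04 without control replicate 4). KLF10, a zinc finger repressor, had 370, 367, 389.6 and 459 in controls and 580, 538, 569 and 516 with the inhibitor, without overlap (log2 change 0.48, limma adjusted p = 5.17e-06). JUNB, a subunit of AP-1, rose by 0.43, and its exons overlap HOOK2. Genes that damp ERK signalling, which are themselves induced by it, had 8 of 16 members tested, 4 called lower (2 with a filter at a mean of 100) and none higher, with a median of -0.15. Beside SPRED2, SPRY2 had 45.9, 43.8, 36.4 and 36.9 in controls and 21.5, 31.1, 16.6 and 21.8 with the inhibitor, without overlap (log2 change -0.84, limma adjusted p = 2.09e-04), and SPRED1 changed by -0.32.

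IRF1, a transcription factor of interferon γ signalling named after its values were seen, rose from 968 ± 28.7 to 1119.9 ± 20.5 (SD, n = 4; log2 change 0.21, limma adjusted p = 4.02e-05), while 35 of the 42 tested type I interferon-stimulated genes were called lower. At medium MYC its log2 change was -0.10. Exons of IRF1 overlap C5orf56. Of 27 tested snoRNA genes 4 were called higher and none lower, and of 8 immunoglobulin constant genes 2 were called lower. The sterol response letters TCACNCCAC, searched on both strands in the same promoter windows, were present in 1 of 21 cholesterol gene promoters (SREBF2) and in 1.15% of all 27305.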
